A study of Mus musculus with 20 samples.

Results

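Promoter regions that carried a called H3K27ac peak in every one of 10 libraries from the developing mouse face are described here. Peaks of the 10 lists on chromosomes 1 to 19 and X were merged where they overlapped, which gave 42339 regions. A region was a promoter region when it lay within 1 kb of any transcript start annotated in GENCODE vM21, and 14903 did. Of these, 2586 overlapped a peak in all 10 lists, or 17.4% of promoter regions and 6.11% of all regions. They were chosen by the presence of peaks in these same lists, so presence is a description and is not tested.

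H3K27ac ChIP-seq had been carried out on facial tissue dissected from wild-type (WT) mouse embryos and made of mixed cells, with no mutant or treated group. At e11.5 there were 4 libraries, from the mandibular and maxillary processes and from the medial and lateral nasal plates. At e13.5 and at e15.5 there were 3 each, from the nose and from both jaw processes. Input libraries were not analysed here. Within a stage each library is another tissue, with no repeat of any tissue, so every p-value below sets a difference against the spread between tissues. The labels do not say if the same embryos gave more than 1 of the tissues.

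At e15.5 the tissue in the labels differed from the tissue in the peak names. The library labelled mandibular process held peaks named for the nose, the library labelled maxillary process held peaks named for the mandibular process, and the library labelled nose held peaks named for the maxillary process. Tissues are named here by the labels. All 3 e15.5 libraries enter the main stage comparison together, where a swap within the stage changes nothing. None entered the comparison of nasal with jaw tissue.

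H3K27ac is the acetyl group placed on lysine 27 of histone H3 by the acetyltransferases p300 and CBP, and it marks promoters and enhancers in use. At a promoter it typically flanks the nucleosome-depleted start site and spreads into the first part of the gene. Promoters rich in CpG dinucleotides serve most housekeeping genes and many developmental regulators, and very wide acetylated domains are known at genes that define a cell type.

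On the chromosomes used, the shortest list was that of the e11.5 maxillary process with 6571 peaks and the longest that of the e13.5 nose with 25936. The number of reads behind each list is unknown. The 2586 regions held 42.2% of the peaks in the shortest list and 10.8% in the longest. Within a stage, list size and tissue cannot be told apart.

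Before the values, the sequences of 8 member promoters are shown because they stand for 4 classes of gene with large shares in the set or very wide regions. They are the first 2 genes in alphabetical order of each of 4 lists whose 250 bases upstream of a start site overlap no annotated exon. Sequences are from RefSeq on GRCm38.p6, the mm10 assembly, and run 5′ to 3′ on the gene's strand up to the base before the start site. Capitals mark matches, on either strand, to 9 short words. These are TATAAA (bound by TATA-binding protein), CCAAT (bound by NF-Y), GGGCGG (bound by Sp factors), CCGGAA (the core word of ETS factors), GCGCATGC (bound by NRF1), CTCGCGAG (a palindrome of housekeeping promoters), TGACGTCA (bound by CREB and ATF factors), CACGTG (the E-box) and AAGATGGC (bound by YY1). Words can overlap each other, and overlapping matches run on as 1 stretch of capitals. Hist1h1b and Hist1h1c (H1f5 and H1f2 in RefSeq) encode linker histones, Rpl13 and Rpl23 are proteins of the large ribosomal subunit, Arid1a is a subunit of SWI/SNF chromatin remodellers, Kat6b is a histone acetyltransferase, Msx1 is a homeodomain factor of facial mesenchyme, and Pdgfra is the receptor for platelet-derived growth factor A.
Hist1h1b, chr13:21780626-21780875, minus strand: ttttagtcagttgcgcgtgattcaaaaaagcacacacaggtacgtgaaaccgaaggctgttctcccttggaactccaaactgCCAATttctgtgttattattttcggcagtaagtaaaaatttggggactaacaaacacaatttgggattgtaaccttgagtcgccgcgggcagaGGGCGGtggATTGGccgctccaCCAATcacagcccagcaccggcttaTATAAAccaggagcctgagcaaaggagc
Hist1h1c, chr13:23738557-23738806, plus strand: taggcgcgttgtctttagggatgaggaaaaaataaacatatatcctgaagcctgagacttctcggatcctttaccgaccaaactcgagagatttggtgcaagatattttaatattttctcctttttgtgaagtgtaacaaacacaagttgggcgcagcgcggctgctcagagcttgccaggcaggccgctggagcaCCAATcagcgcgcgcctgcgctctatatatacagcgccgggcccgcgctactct
Rpl13, chr8:123102100-123102349, plus strand: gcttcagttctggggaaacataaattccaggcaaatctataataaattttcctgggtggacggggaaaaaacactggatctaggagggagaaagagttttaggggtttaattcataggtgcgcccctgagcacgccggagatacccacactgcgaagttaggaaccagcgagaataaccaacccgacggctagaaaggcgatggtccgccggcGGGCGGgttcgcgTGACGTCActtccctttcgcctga
Rpl23, chr11:97782440-97782689, minus strand: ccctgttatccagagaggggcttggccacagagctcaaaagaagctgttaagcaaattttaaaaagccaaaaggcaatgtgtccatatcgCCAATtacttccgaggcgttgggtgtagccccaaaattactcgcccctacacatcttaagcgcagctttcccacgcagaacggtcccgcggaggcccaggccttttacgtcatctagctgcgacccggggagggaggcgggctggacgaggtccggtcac
Arid1a, chr4:133753986-133754235, minus strand: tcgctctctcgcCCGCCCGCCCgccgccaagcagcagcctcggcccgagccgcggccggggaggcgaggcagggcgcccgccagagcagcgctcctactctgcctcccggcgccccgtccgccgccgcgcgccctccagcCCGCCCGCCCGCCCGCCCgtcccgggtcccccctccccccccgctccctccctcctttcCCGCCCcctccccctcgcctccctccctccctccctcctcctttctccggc
Kat6b, chr14:21499520-21499769, plus strand: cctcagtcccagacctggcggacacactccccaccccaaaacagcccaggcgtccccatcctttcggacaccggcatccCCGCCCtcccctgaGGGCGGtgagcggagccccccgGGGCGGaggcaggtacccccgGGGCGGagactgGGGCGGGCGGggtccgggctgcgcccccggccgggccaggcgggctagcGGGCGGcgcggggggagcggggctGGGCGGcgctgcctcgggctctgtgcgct
Msx1, chr5:37824586-37824835, minus strand: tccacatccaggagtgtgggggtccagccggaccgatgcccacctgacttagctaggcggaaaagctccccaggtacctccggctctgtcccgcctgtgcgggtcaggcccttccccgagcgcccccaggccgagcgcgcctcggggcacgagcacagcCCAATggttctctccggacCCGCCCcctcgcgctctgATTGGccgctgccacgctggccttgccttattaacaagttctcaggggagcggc
Pdgfra, chr5:75152001-75152250, plus strand: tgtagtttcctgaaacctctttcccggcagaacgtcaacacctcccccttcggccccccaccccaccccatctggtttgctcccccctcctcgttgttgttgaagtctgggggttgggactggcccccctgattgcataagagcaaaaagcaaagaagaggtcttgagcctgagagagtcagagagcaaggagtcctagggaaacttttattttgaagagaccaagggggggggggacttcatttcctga

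The printed promoters differ widely in composition. Arid1a had 81.6% G plus C and 33 CpG dinucleotides in the 250 bases, with 7 matches to GGGCGG. Kat6b had 78.8% G plus C and 8 such matches. Pdgfra had 54.4% G plus C, 4 CpG dinucleotides and no match to any of the 9 words. Hist1h1b carried 3 matches to CCAAT and 1 to TATAAA, and Rpl13 carried 1 match to TGACGTCA.

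Across the whole set, composition was measured in 300 bases around 1 start site per gene, from 250 before to 50 after it, for all 2909 protein-coding genes with a start within 1 kb of a member region. The median G plus C content was 60.7% in these genes, 59.3% in 9365 genes whose best promoter region had a peak in 1 to 9 libraries, and 48.7% in 9474 genes with none. The ratio of observed to expected CpG had a median of 0.803 in genes of member regions, 0.725 in genes with 1 to 9 libraries and 0.220 in genes with none. A ratio of at least 0.6 was reached by 76.7% of genes of member regions, 65.9% of genes with 1 to 9 libraries and 14.9% of genes with none. The median ratio was higher with each added library, and most of that difference lay between genes with no peak and genes with a peak in a few libraries.

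**Figure D1:**
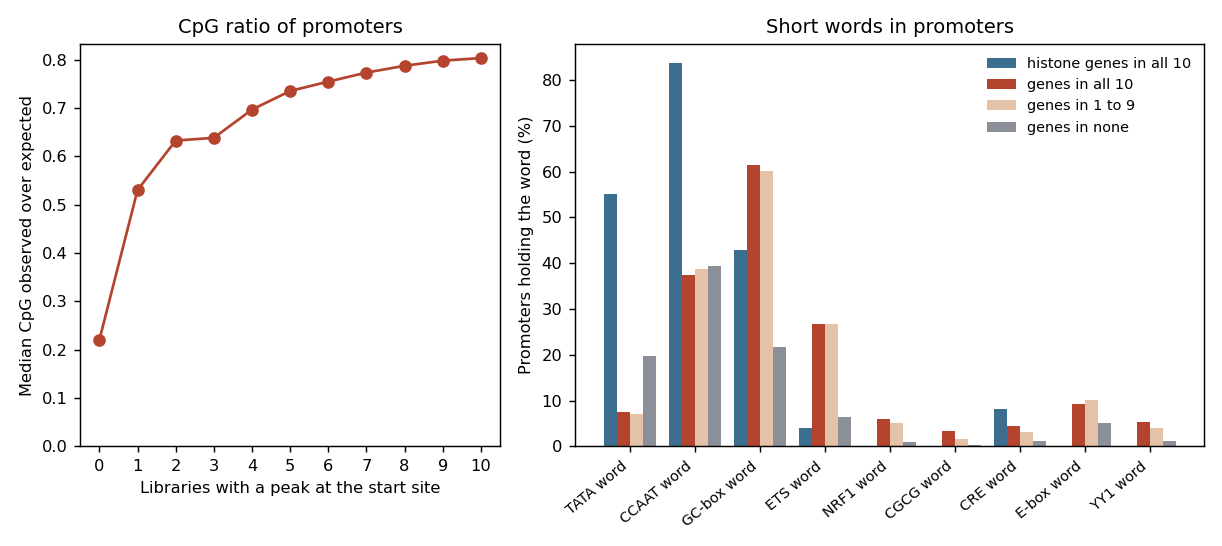
Left, median ratio of observed to expected CpG in 300 bases around a start site (y axis) for protein-coding genes by the number of libraries with a peak at the start site (x axis). Right, share of promoters holding each of 9 short words on either strand (y axis, %), for replication-dependent histone genes with a peak in all 10 libraries, all genes with a peak in all 10, genes with 1 to 9 and genes with none. The words run from left to right in the order in which they are listed in the text. Histone promoters stand apart at the TATA and CCAAT words, and genes in all 10 lie close to genes in 1 to 9.

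The most frequent words of CpG-rich promoters had like shares in genes with fewer libraries. GGGCGG occurred in 61.4% of the genes of member regions, 60.1% of genes with 1 to 9 libraries and 21.8% of genes with none, against 43.6% of all promoters. CCGGAA occurred in 26.6% of the genes of member regions, 26.8% of genes with 1 to 9 libraries and 6.32% of genes with none, against 17.8% of all promoters. The rare word CTCGCGAG occurred in 3.33% of the genes of member regions, 1.57% of genes with 1 to 9 libraries and 0.327% of genes with none, against 1.26% of all promoters. TATAAA went the other way, with 7.46% in the genes of member regions, 7.0% with 1 to 9 libraries and 19.7% with none, against 12.6% of all promoters.

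The word of NRF1 occurred in 6.05% of the genes of member regions, 5.19% of genes with 1 to 9 libraries and 3.46% of all promoters. The word of CREB and ATF factors occurred in 4.37%, 3.11% and 2.47% of the same classes, and that of YY1 in 5.36%, 4.10% and 2.96%. The E-box occurred in 9.25% of the genes of member regions, 10.1% of genes with 1 to 9 libraries and 7.81% of all promoters, and CCAAT in 37.5%, 38.7% and 38.8%. A match is a description of the letters and says nothing of binding in these tissues. Member regions whose genes all had a CpG ratio under 0.6 numbered 515 and had a median width of 2672 bp, and the 1900 with at least 1 gene at or above 0.6 had a median width of 2319 bp.

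Presence in all libraries was far more common at promoters than elsewhere. All 10 libraries were reached by 17.4% of promoter regions, against 245 of 27436 distal regions (0.893%), those with no annotated start within 1 kb. Promoter regions were most numerous at both ends of the scale, with 2707 in 1 library, 1068 in 5 and 2586 in 10. Distal regions fell steadily in number, with 16144 in 1 library and 970 in 5. No test is given, since promoter status and presence in all lists defined the set.

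**Figure D2:**
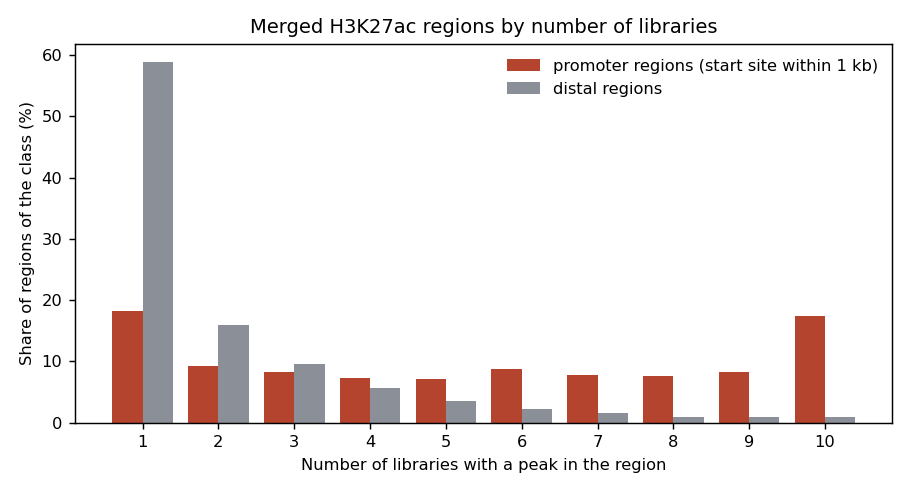
Share of merged regions (y axis, %) by the number of libraries in which they overlapped a peak (x axis), for the 14903 promoter regions and the 27436 distal regions. Promoter regions peak again at 10 libraries with 17.4%, where distal regions are at 0.893%.

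Values just outside the rule show what the threshold leaves out. A further 1223 promoter regions had a peak in 9 libraries, and in 1216 of them the missing list was 1 of the 4 with the fewest peaks. The e15.5 library labelled nose lacked 460, the e11.5 maxillary process 398, the e13.5 mandibular process 223 and the e11.5 mandibular process 135. Of the 9-library regions with a protein-coding gene, the widest was that of Tbx2, a T-box factor, with a median of 16968 bp over 9 libraries and no peak in the e15.5 library labelled nose. Other wide ones were those of Alx1, Pax3 and Lhx8, all factors of facial mesenchyme or neural crest, with medians of 15953, 9802 and 9366 bp. The e11.5 mandibular process lacked Alx1 and Pax3, and the e15.5 library labelled mandibular process lacked Lhx8.

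Just inside the rule, the lowest −log10 q of any library was 1.3 at Lmna, Dnmt1, Clec2d, Chchd1 and Dhrs4, which is the floor of the deposited lists. Lmna encodes lamins A and C of the nuclear envelope, and Dnmt1 is the maintenance DNA methyltransferase. In all, 1060 of the 2586 regions (41.0%) had a −log10 q under 2 in at least 1 library. With only peaks at a −log10 q of 2 or more, 1526 regions had a peak in every library. When the peaks of each library had to cover at least 50% of the merged region, 951 did.

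Almost all members sat on the start site itself. A start lay inside 2566 regions (99.2%), and in 2537 (98.1%) a single start was within 1 kb of a peak of every library. Members held 1 protein-coding gene in 1996 cases and at least 2 in 460, or 17.8% of members against 8.87% of the other 12317 promoter regions. Members without a protein-coding gene numbered 130, or 5.03%, against 14.5% of the other promoter regions. On the X chromosome 39 of 408 promoter regions were members (9.56%), against 2547 of 14495 on autosomes (17.6%).

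The regions with the most protein-coding genes lay in histone clusters. A region at chr13:23742985-23765204 covered the starts of 8 genes, Hist1h1a, Hist1h2ab, Hist1h2bb, Hist1h3a, Hist1h3b, Hist1h3c, Hist1h4a and Hist1h4b. A second at chr13:23561645-23578378 covered 6, Hist1h2ad, Hist1h2ae, Hist1h2bf, Hist1h2bg, Hist1h3d and Hist1h3e. The next were a region of 5 genes with Mvp, Prrt2, Pagr1a, Pagr1b and Gm42742, a region of 4 with Bola1 and the histone genes Hist2h2ab, Hist2h2ac and Hist2h2be, and a region of 4 gene entries under the symbols Zbed6, Zc3h11a and Gm38394, of which Zc3h11a is entered more than once. A peak over several starts cannot be assigned to any 1 of them.

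Width, the bases covered by a library's peaks within a region, was not itself part of the rule. Needing a peak in every list, short ones included, can favour wide and strong peaks. Comparisons of members with other promoter regions in width and rank are therefore descriptions, with no test. The median width of members ranged from 1756 bp in the e11.5 maxillary process to 2679 bp in the e15.5 library labelled mandibular process. Other promoter regions with a peak had medians of 1108 bp and 1766 bp in those 2 libraries, and from 1108 to 1797 bp over all 10. Members were wider at the median in each of the 10 libraries, and they also ranked higher by q-value, with median ranks between the percentiles 71.7 and 94.0 of a list, against medians between 37.3 and 62.3 for other promoters. The 245 distal regions in all libraries were also wide, with medians from 2269 to 3595 bp.

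**Figure D3:**
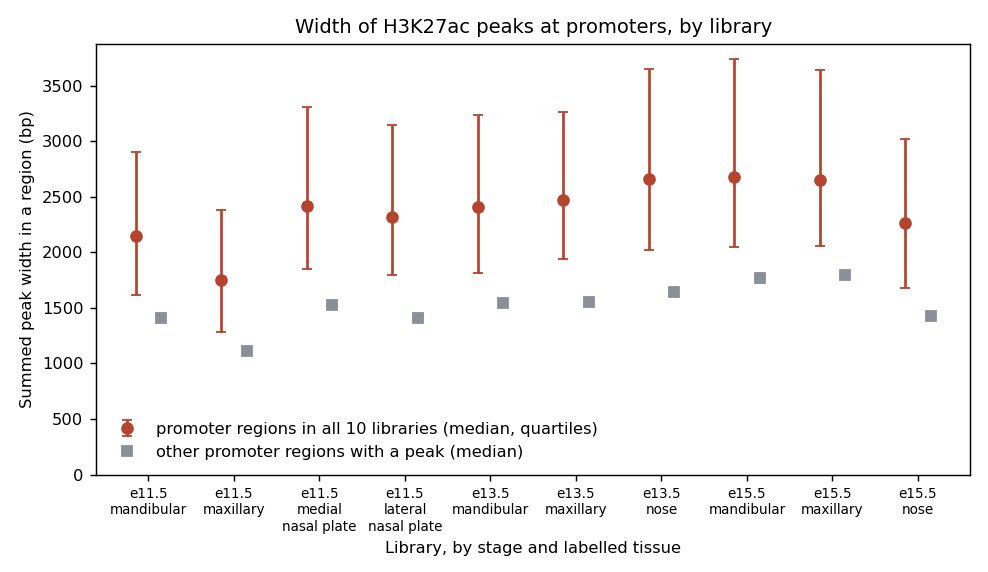
Summed peak width per region (y axis, bp) in each library (x axis, by stage and labelled tissue), as the median and quartiles of the 2586 promoter regions present in all 10 libraries and as the median of other promoter regions with a peak in that library. The members lie above in every library, and both fall lowest in the e11.5 maxillary process.

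Over the 10 libraries the median width of a member was 2393 bp at the middle of the set, with quartiles of 1884 and 3164 bp. A median over 5 kb was reached by 213 regions, a median over 10 kb by 40, and 21 were under 1 kb. The widest library exceeded the narrowest by 2.05-fold at the median of the set and by 3.77-fold at the 90th percentile. The order of widths was shared between libraries, with Spearman correlations across regions from 0.60 (e11.5 maxillary process and the e15.5 library labelled nose) to 0.874 (e13.5 nose and the e15.5 library labelled mandibular process), a median of 0.738 over 45 pairs. These are correlations across regions on 1 genome and carry no p.

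For the 1996 members with 1 protein-coding gene, coverage leaned into the gene. The share of covered bases downstream of the middle start site had a median from 52.6% in the e11.5 mandibular process to 56.7% in the e13.5 maxillary process. Averaged over libraries, 1253 regions (62.8%) had more bases downstream than upstream.

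The widest member was that of Tbx3, a T-box factor needed in limb, heart and mammary development, at chr5:119660587-119689114. It covered 21096, 25427, 26828 and 15705 bp in the e11.5 mandibular process, maxillary process, medial nasal plate and lateral nasal plate, and 14191, 25347 and 27890 bp in the e13.5 mandibular process, maxillary process and nose. In the e15.5 libraries labelled mandibular process, maxillary process and nose it covered 25363, 13862 and 13488 bp. The stages overlapped. Low values came from the e11.5 lateral nasal plate, the e13.5 mandibular process and the e15.5 libraries labelled maxillary process and nose. The e15.5 library labelled maxillary process held peaks named for the mandibular process, which was low at e13.5 but not at e11.5. The e15.5 library labelled nose held peaks named for the maxillary process, which was high at both earlier stages. The part of the tissue names in these values was not tested.

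Next was Mrpl23, a mitochondrial ribosomal protein gene in the imprinted neighbourhood of H19, with a median of 22302 bp (chr7:142518916-142556120). Its width was 5172 bp in the e15.5 library labelled nose and 7169 bp in the e11.5 maxillary process, against 30988 bp in the e13.5 nose, and it was split into up to 8 peaks in a library. The lowest values were thus those of 2 short lists. The H19 start had a member region of its own at chr7:142568190-142580770, with a median of 9374 bp and a lowest value of 3128 bp in the e11.5 maxillary process.

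Other very wide members were regulators of transcription. Trps1, a GATA-type repressor whose human counterpart is mutated in tricho-rhino-phalangeal syndrome, had a median of 15598 bp. The homeobox zinc finger genes Zfhx4 and Zfhx3 had 15211 and 14800 bp, the region of Mllt10 and Skida1 15139 bp, and Rarg, a retinoic acid receptor, 15009 bp. The 8-gene histone region had 17785 bp.

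Twist1, the basic helix-loop-helix factor of cranial mesenchyme, was among the 10 widest and differed little in unnormalised width between libraries. It covered 14349, 14416, 14656 and 15004 bp in the e11.5 mandibular process, maxillary process, medial nasal plate and lateral nasal plate. It covered 14649, 15930 and 15629 bp in the e13.5 mandibular process, maxillary process and nose, and 13362, 13461 and 13199 bp in the e15.5 libraries labelled mandibular process, maxillary process and nose. The 3 lowest values were those of e15.5, below every e11.5 value, but the normalised difference between e15.5 and e11.5 was −0.23 on the log2 scale and did not pass the test (limma, adjusted p = 0.546).

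At the other end were narrow members with housekeeping genes. Fancl of the Fanconi anaemia pathway, Papolg, a poly(A) polymerase, Ttc23 and Cnnm3 had medians of 785, 809, 832 and 854.5 bp.

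Evenness was measured as the SD of log2 width after quantile normalisation over the 10 libraries, which had a median of 0.276 in members and 0.316 in the distal regions in all libraries. The smallest values were those of Plscr3, a phospholipid scramblase gene, at 0.0829, Smg1, a kinase of nonsense-mediated decay, at 0.0867, Wtap, a subunit of the m6A methyltransferase, at 0.0883, Ubxn7 at 0.0886, and the region of Ldb1 and Pprc1 at 0.0919. Ldb1, a LIM domain cofactor, was even at a large size, between 6710 and 10815 bp.

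By the unnormalised ratio of the widest to the narrowest library, Pdgfra was second of all members, a feature chosen after the values were seen. It covered 9428, 8913, 9467 and 9453 bp in the e11.5 mandibular process, maxillary process, medial nasal plate and lateral nasal plate, 9545, 9586 and 9527 bp in the e13.5 mandibular process, maxillary process and nose, and 9456, 9450 and 9668 bp in the e15.5 libraries labelled mandibular process, maxillary process and nose. The ratio was 1.08, against 1.06 for Fmc1 and a median of 2.05 over all members. Its normalised SD was 0.225, against a median of 0.276 over all members.

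The least even members were Gm8307, Col2a1, Gdf11, Zfhx3 and Col6a3. Col2a1, the collagen of cartilage, covered 5547, 1401, 5975 and 4320 bp in the e11.5 mandibular process, maxillary process, medial nasal plate and lateral nasal plate and 1758, 1706 and 4699 bp in the e13.5 mandibular process, maxillary process and nose. At e15.5 it covered 15261 bp in the library labelled mandibular process, against 1001 and 1453 bp in those labelled maxillary process and nose. The SD on the normalised log2 scale was 1.22.

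Gdf11, a ligand of the TGF-beta family, was widest in nasal tissue of the early stages. It covered 4464 and 4011 bp in the medial and lateral plates of e11.5 and 4286 bp in the e13.5 nose, against 949 and 1736 bp in the e11.5 mandibular and maxillary processes and 956 and 1362 bp in those of e13.5. The groups did not overlap, and the nasal minus jaw difference of 1.50 on the log2 scale did not pass the test over all regions (limma, adjusted p = 0.074). At e15.5 it covered 1006, 345 and 604 bp in the libraries labelled mandibular process, maxillary process and nose.

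Genes were grouped into 37 lists, and 13.4% of the 21755 protein-coding genes annotated had a start within 1 kb of a member region. Shares of the lists are read against that figure, as counts with no test. For machinery of gene expression, 39 of 78 cytosolic ribosomal protein genes (50%), 24 of 47 splicing factor genes (51.1%) and 22 of 67 translation factor genes (32.8%) were members. RNA polymerase II subunits, general factors and Mediator had 17 of 72 (23.6%). Of all these genes, 4 translation factor genes and 1 splicing factor gene had no peak in any library.

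Other housekeeping groups ranged from under the share of all genes to well above it. Mitochondrial ribosomal protein genes had 9 of 78, proteasome subunits 5 of 39 (12.8%) and respiratory chain subunits 14 of 85 (16.5%), and all 78 mitochondrial ribosomal protein genes had a peak in at least 1 library. DNA replication factors had 9 of 39 (23.1%), E2 ubiquitin-conjugating enzymes 9 of 31, and chaperonin and heat shock proteins 12 of 19 (63.2%). Median widths were 2140 bp for cytosolic ribosomal proteins, 1842 bp for proteasome subunits and 1644 bp for replication factors, against 2382 bp for all members with a coding gene. The proteasome and replication medians lay under the lower quartile of members, 1884 bp.

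Eef2, the elongation factor that moves the ribosome along, had a median of 4847 bp, U2af2, a reader of 3′ splice sites, 3547 bp, Srsf3, a splicing factor rich in serine and arginine, 3484 bp, and Hspa8, the constitutive Hsp70 chaperone, 3645 bp. Gtf2i led the polymerase II list with 5673 bp. In the replication list Mcm7, a subunit of the replicative helicase that shares its region with Ap4m1, had 2971 bp.

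Replication-dependent histone genes, which are transcribed in S phase, had 49 of 67 genes in 18 member regions (73.1%) and a median width of 4592 bp. Their promoters also differed in letters from the rest of the set. TATAAA occurred in 27 of the 49 (55.1%) and CCAAT in 41 (83.7%), against 7.46% and 37.5% of all genes of member regions. The histone genes descend from common copies and sit together, so they are not independent of each other. CCGGAA occurred in 2 of them (4.08%), against 26.6% of all genes of member regions.

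Chromatin regulators whose human counterparts are mutated in syndromes with facial features had the largest share, 20 of 26 (76.9%), and all 26 had a peak in at least 1 library. Arid1a, with 6932 bp, Setd5, a SET domain protein, with 4448 bp, and Arid1b, a second SWI/SNF subunit, with 4403 bp, were the widest. Arid1a covered between 6009 and 7572 bp, with a normalised SD of 0.211. Chd7, the remodeller mutated in human CHARGE syndrome, was not a member and had a peak in 5 libraries. Crebbp and Kat6a had a peak in 6 libraries each, Hdac8 in 2, and Ehmt1 and Smc1a in 9.

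Among writers, readers and erasers of histone acetylation 9 of 22 were members (40.9%). The region shared by Brd2, a bromodomain reader of acetylated histones, and H2-DMa had a median of 5657 bp. Ep300, which encodes the acetyltransferase p300, had 3218 bp, between 2186 and 4087 bp, and a −log10 q of at least 8.01 in every library.

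**Figure D4:**
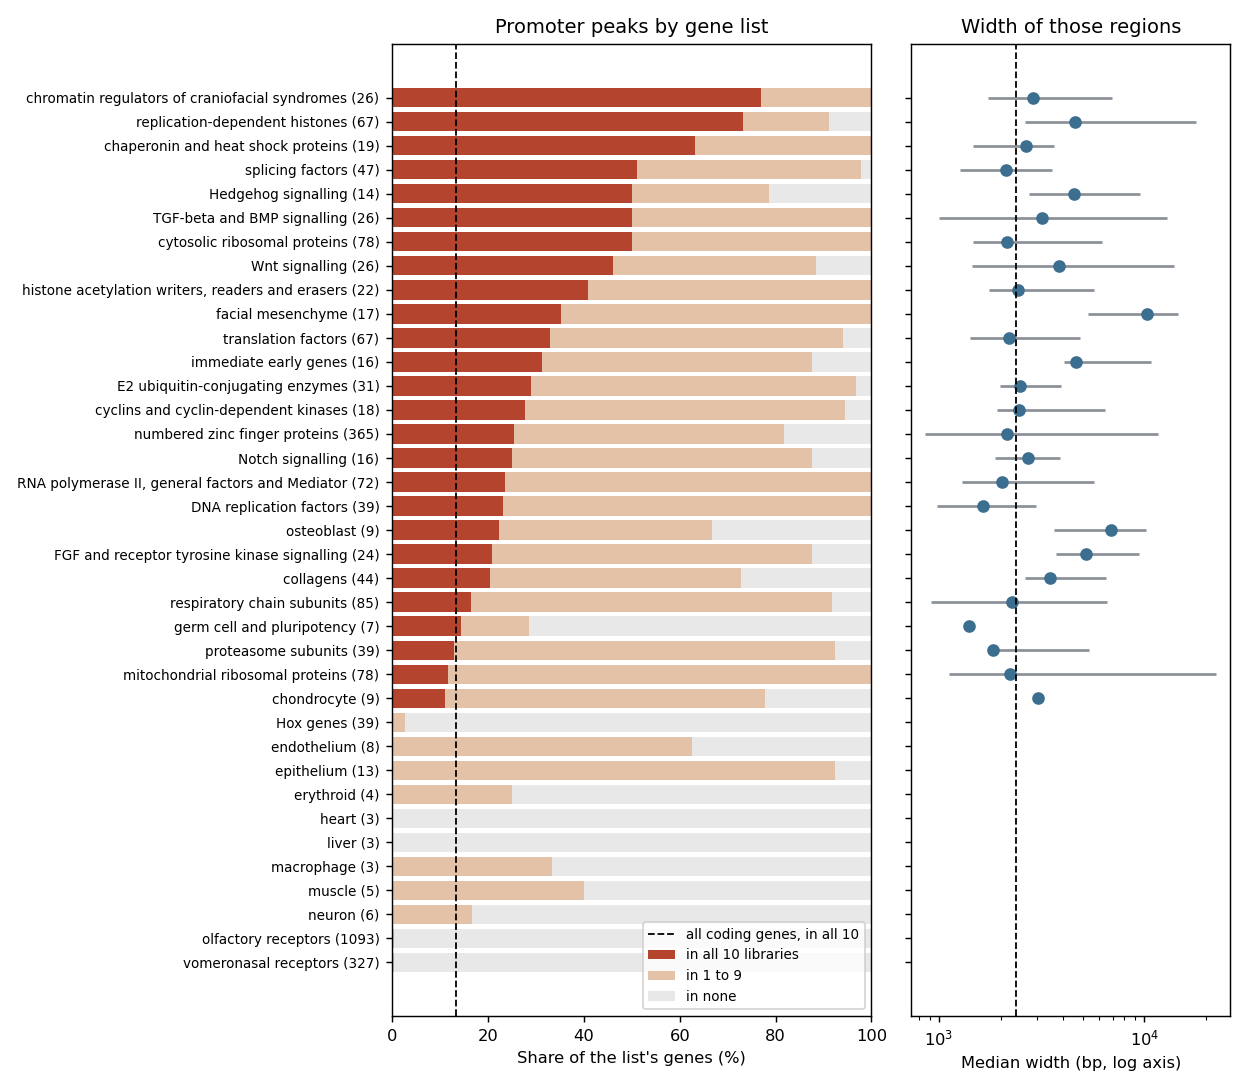
Left, share of each list's protein-coding genes (x axis, %) whose start lay within 1 kb of a region with a peak in all 10 libraries, in 1 to 9 or in none, for 37 lists with the number of genes in parentheses. The dashed line is the share of all protein-coding genes in all 10, 13.4%. Right, median width of the list's member regions (x axis, bp, log axis) with a line from the narrowest to the widest region, and the dashed line at the median of all members with a coding gene. Chromatin regulators and histones have the largest shares, facial mesenchyme genes the widest regions, and the epithelium, endothelium, muscle, neuron, erythroid, macrophage, liver and heart lists have no member, whereas the germ cell and pluripotency list has 1, Tex14.

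The labelled tissue was checked against markers. Of 17 genes of facial mesenchyme, 6 were members (Alx4, Msx1, Pdgfra, Prrx1, Prrx2 and Twist1) and the other 11 had a peak in 5 to 9 libraries. Their member regions were the widest of any list, with a median of 10251 bp. None of 13 epithelial, 8 endothelial, 5 muscle, 6 neuronal, 4 erythroid, 3 macrophage, 3 liver and 3 heart markers was a member. Of the epithelial markers 12 had a peak in some libraries, up to 7 for Grhl2, the endothelial marker Fli1 had a peak in 9, and the liver and heart markers had none. None of 39 Hox genes was a member, and 38 of them had no peak in any library.

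Chemosensory receptors, which are used in sensory neurons, served as families not thought to be used in facial mesenchyme. Of 1093 olfactory receptor genes none was a member and 5 had a peak in any library, and of 327 vomeronasal receptor genes none was a member and 1 had a peak, Vmn1r4, which had it in 9 libraries. Of 7 germ cell and pluripotency genes 1 was a member, Tex14, whose region it shares with Rad51c, a DNA repair gene. The member region covered both starts.

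Pathways of facial growth are given by role. In Hedgehog signalling, 7 of 14 genes were members (50%). These were the receptor Ptch1, the co-receptors Boc and Gas1, the transducer Smo and the transcription factors Gli1, Gli2 and Gli3, while the ligands Shh and Ihh had no peak in any library. Ptch1 had a median of 9557 bp, Gli2 7937 bp and Gas1 7269 bp, and the median of the list was 4541 bp.

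In the TGF-beta and BMP list 13 of 26 genes were members (50%). They included the receptors Acvr1, Bmpr1a, Bmpr2 and Tgfbr1, the transducers Smad1, Smad3 and Smad5, and the BMP target genes Id1, Id2 and Id3. Of 6 ligand genes, Tgfb3 was a member, Bmp4 and Tgfb2 had a peak in 8 libraries, Bmp7 in 7, Bmp2 in 3 and Tgfb1 in 1. Smad7, an inhibitor of the pathway, had a median of 12933 bp, Id3 10814 bp and Id2 9238 bp. Id2 was narrowest at 8197 bp, and Smad7 ranged from 4969 to 15609 bp.

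In the Wnt list 12 of 26 genes were members (46.2%), among them the receptors Fzd1, Fzd2, Fzd7 and Lrp6, the transducers Ctnnb1, Gsk3b and Apc, and Axin2, a negative feedback target. The ligand Wnt5a was a member with a median of 13896 bp, and the ligands Wnt3 and Wnt9b had no peak in any library. Fzd2 had 10110 bp and Fzd7 6105 bp.

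For FGF and receptor tyrosine kinases 5 of 24 genes were members (20.8%). These were the receptors Pdgfra, Pdgfrb and Fgfr2 and the feedback inhibitors Dusp6 and Spry2, with medians of 6423 bp for Dusp6 and 5189 bp for Spry2. The ligands Fgf3, Fgf8 and Fgf15 had no peak. In the Notch list 4 of 16 genes were members, with Jag1, a ligand, the widest at 3879 bp, then Maml1, a coactivator, at 2751 bp and Rbpj, the DNA-binding factor of the pathway, at 2694 bp.

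Other lists were smaller or lower. Of 16 immediate early genes 5 were members, and Ier2 covered between 9686 and 11430 bp in the 10 libraries. Jund had a median of 6459 bp, and Myc one of 4664 bp with a lowest value of 618 bp in the e11.5 maxillary process. Numbered zinc finger genes had 93 of 365 (25.5%), led by Zfp36, which encodes an RNA-binding protein and shares its region with Plekhg2, at 11710 bp. Cyclins and cyclin-dependent kinases had 5 of 18, with Ccnd2 at 6398 bp.

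Lists of skeletal differentiation had shares on both sides of the 13.4% of all protein-coding genes. Of 44 collagen genes 9 were members (20.5%), and their regions had a median SD of 0.409, against 0.276 over all members. With the same number of peaks taken from each library, 5 of the 44 were members and no chondrocyte marker was. Col3a1 had a median of 5825 bp, and Col6a1 one of 4466 bp. Of 9 chondrocyte markers Col2a1 alone was a member (11.1%), and of 9 osteoblast markers 2 were (22.2%).

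Members also held noncoding genes. The 2586 regions were within 1 kb of the starts of 562 long noncoding genes, 98 microRNA genes and 102 small nucleolar RNA genes, many of them inside coding genes. The widest region without a protein-coding gene was that of Dnm3os, a noncoding RNA that carries Mir199a-2 and Mir214, at chr1:162204720-162228419. It covered 17072, 15261, 19688 and 18482 bp in the e11.5 mandibular process, maxillary process, medial nasal plate and lateral nasal plate, 16273, 20797 and 22309 bp in the e13.5 mandibular process, maxillary process and nose, and 20914, 21578 and 13223 bp in the e15.5 libraries labelled mandibular process, maxillary process and nose. After normalisation its SD over the libraries was 0.105, under the 10th percentile of members, 0.172.

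Further wide regions without a coding gene, chosen after their values were seen, included that of Mir125b-1 with a median of 13827 bp and that of Malat1, an abundant nuclear RNA, with 8991 bp. Mature microRNAs lay inside 41 member regions (71 mature sequences of 46 genes). Those that share a seed with another mature sequence in the set and have a well-known family are printed, with the seed (bases 2 to 8) in capitals, because a peak at any of several loci could serve the same seed. Mir199a-2 lies in the Dnm3os region, Mir199a-1 in that of Dnm2 and Mir199b in that of Dnm1, and all 3 give a 3′ arm with 1 common seed. Mir125a and Mirlet7e lie together in the region annotated to Spaca6.
mmu-miR-199a-3p, chr1:162217883-162217904, plus strand: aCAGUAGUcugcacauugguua
mmu-miR-199b-3p, chr2:32318524-32318545, plus strand: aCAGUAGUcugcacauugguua
mmu-miR-199a-5p, chr1:162217844-162217866, plus strand: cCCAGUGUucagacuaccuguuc
mmu-miR-125b-5p, chr9:41581940-41581961, plus strand: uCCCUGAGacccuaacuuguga
mmu-miR-125a-5p, chr17:17830817-17830840, plus strand: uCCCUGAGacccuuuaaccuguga
mmu-let-7i-5p, chr10:122985698-122985719, minus strand: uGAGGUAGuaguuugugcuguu
mmu-let-7e-5p, chr17:17830366-17830387, plus strand: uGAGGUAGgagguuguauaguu

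The host regions of these microRNAs had medians of 6311 bp at Dnm1, 4701 bp at Mirlet7i, 4675 bp at Spaca6 and 3014 bp at Dnm2. Peaks mark the chromatin of a locus, and levels of the mature microRNAs were not measured. Dnm1 and Dnm2 encode dynamins, and their microRNAs are transcribed antisense to the gene, so the acetylation there cannot be assigned to a strand.

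Width was then compared between e15.5 and e11.5 by limma on quantile-normalised log2 widths of all 2831 regions with a peak in every library, members and distal regions together. At e15.5, 24 members were wider and 15 narrower at an adjusted p under 0.05, or 0.928% and 0.580% of members. Over all 2831 regions, most of which are members, 0.954% were called wider and 0.600% narrower. Of the 245 distal regions 3 were wider (1.22%) and 2 narrower (0.816%), so the shares of members were not above those of distal regions. At an unadjusted p under 0.05 there were 395 of the 2586 members and 65 of the 245 distal regions, a larger share of the distal regions. The median difference over members was −0.03 on the log2 scale.

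Normalised widths of the 2 stages did not overlap in any of the 39 called members. Unnormalised widths did not overlap in 24 of 24 wider and 13 of 15 narrower regions. The e13.5 mean lay between the other 2 stages in all 24 wider regions and in 9 of 15 narrower ones. The 39 were called on these same widths, so these counts describe them and add no further evidence. Shares over all members were not taken for these counts. Lmna (adjusted p = 0.0525) and the region of Mllt10 and Skida1 (adjusted p = 0.0765), not called by limma, did not overlap either. Of the 21 wider regions with 1 coding gene, 17 gained more bases downstream of the start than upstream. A −log10 q under 2 in some library occurred in 14 of the 24 wider and 7 of the 15 narrower regions, against 41.0% of all members.

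Smarca2, an ATPase of SWI/SNF remodellers whose human counterpart is mutated in Nicolaides-Baraitser syndrome, was among the most clearly wider regions (chr19:26603380-26608764). It covered 1365, 910, 1997 and 1074 bp in the e11.5 mandibular process, maxillary process, medial nasal plate and lateral nasal plate, 4438, 4413 and 4830 bp in the e13.5 mandibular process, maxillary process and nose, and 5182, 4863 and 4981 bp in the e15.5 libraries labelled mandibular process, maxillary process and nose. Every later library exceeded every e11.5 library. The mean was 5009 ± 161 bp at e15.5 (SD, n = 3) and 1337 ± 479 bp at e11.5 (SD, n = 4). The e15.5 minus e11.5 difference was 1.71 on the normalised log2 scale (SE 0.21, adjusted p = 0.00381). It passed the test under all 16 alternatives in which the region was tested. Fits with peaks at a −log10 q of 2 or more and with equal peak numbers did not hold the region, whose lowest −log10 q was 1.77. The added bases lay mostly inside the gene, with 3577 bp downstream of the start at e15.5 and 279.5 bp at e11.5.

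The region annotated to 4930578M01Rik, at chr15:98984433-98989513, had the lowest adjusted p. It covered 4581, 5002 and 4211 bp in the e15.5 libraries, against 1255, 1133, 1723 and 1735 bp in the e11.5 libraries. The groups did not overlap, the difference was 1.41 (SE 0.16, adjusted p = 0.00259), and it held under all 17 alternatives tested. The fit with peaks at a −log10 q of 2 or more did not hold the region, whose lowest −log10 q was 1.62. Plec, which encodes the cytolinker plectin, covered 6794, 7367 and 7154 bp at e15.5, against 1986, 2113, 3028 and 2238 bp at e11.5, a difference of 1.38 (SE 0.22, adjusted p = 0.0168).

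Trps1 was wider by 1.76 on the log2 scale (SE 0.40, adjusted p = 0.0462). It covered 4508, 9136, 5143 and 5961 bp in the e11.5 mandibular process, maxillary process, medial nasal plate and lateral nasal plate, 5653, 24986 and 24941 bp in the e13.5 mandibular process, maxillary process and nose, and 23903, 22060 and 24672 bp in the e15.5 libraries. The e13.5 mandibular process was at the level of e11.5 and the other 2 e13.5 libraries were at that of e15.5. The call was lost under 11 of 18 alternatives.

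Bend5, a BEN domain gene, had the largest difference, 1.95 (SE 0.35, adjusted p = 0.0225). It covered 6129, 11236 and 5865 bp in the e15.5 libraries, against 1900, 532, 2260 and 2429 bp in the e11.5 libraries. The e15.5 library labelled maxillary process was high among its stage and the e11.5 maxillary process was low. Further wider regions were those of Zfp503, a zinc finger repressor, by 1.58, Hexim1, an inhibitor of the elongation factor P-TEFb, by 1.56, 2010111I01Rik by 1.53, Gna13, a G protein subunit, by 1.46, and Cd81, a tetraspanin, by 1.42, with adjusted p between 0.0172 and 0.0327.

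Among narrower regions Nr2f1, the orphan nuclear receptor COUP-TF1, stood first (chr13:78192375-78205594). It covered 11660, 12103, 11618 and 9612 bp in the e11.5 mandibular process, maxillary process, medial nasal plate and lateral nasal plate, 5304, 5579 and 11293 bp in the e13.5 mandibular process, maxillary process and nose, and 4480, 5328 and 3738 bp in the e15.5 libraries labelled mandibular process, maxillary process and nose. The e13.5 nose kept the early width and the e13.5 jaw libraries had the later one. The mean was 4515 ± 796 bp at e15.5 (SD, n = 3) and 11248 ± 1113 bp at e11.5 (SD, n = 4). The difference was −1.54 (SE 0.21, adjusted p = 0.00592) and held under all 16 alternatives tested. Fits with peaks at a −log10 q of 2 or more and with equal peak numbers did not hold the region, whose lowest −log10 q was 1.50. Downstream of the start it covered 339 bp at e15.5 and 4811 bp at e11.5.

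Other narrower regions included 2 of chromatin proteins. Hmgb3, a chromatin protein on the X chromosome, covered 898, 824 and 1301 bp at e15.5, against 2035, 1495, 2135 and 1904 bp at e11.5 (difference −1.19, SE 0.25, adjusted p = 0.0315). Hist1h4j, a histone H4 gene, covered 2547, 2854 and 1128 bp at e15.5, against 3420, 3625, 4234 and 4357 bp at e11.5 (difference −1.17, SE 0.24, adjusted p = 0.0315). Neither gene's groups overlapped. The call of Hmgb3 was lost under 8 of 17 alternatives and that of Hist1h4j under 8 of 18. The other narrower regions named were those of Pabpc1, a poly(A)-binding protein, by −1.27, Adpgk, a glucokinase that uses ADP, by −1.27, Sulf2, a heparan sulfatase, by −1.11, Csrp2, a LIM protein, by −1.0, the pair Iscu and Sart3 by −0.91, and the pair Prr11 and Ska2 by −0.89, with adjusted p between 0.0172 and 0.0385.

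**Figure D5:**
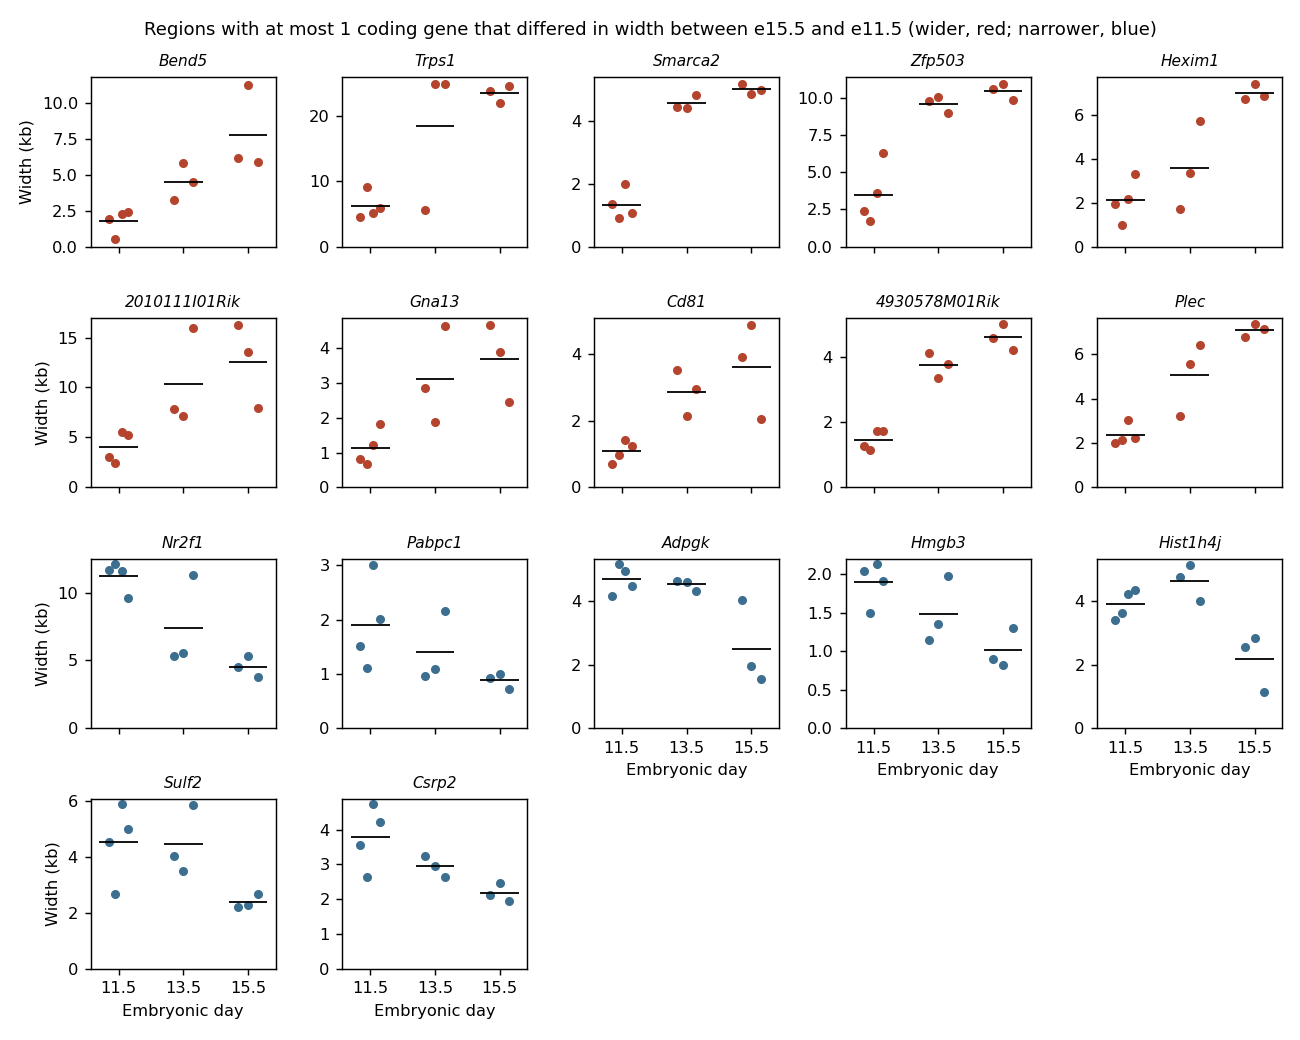
Summed peak width (y axis, kb) by embryonic day (x axis) for members with at most 1 coding gene that were wider (red, 10 regions) or narrower (blue, 7 regions) at e15.5 than at e11.5. Points are libraries, 4 at the first day and 3 at each later day, and lines are stage means. In every wider region shown except Trps1 and Hexim1, each later library lies above every e11.5 library, and in Nr2f1 the e13.5 nose lies with e11.5.

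The stage lists showed little beyond single genes. Of the 18 replication-dependent histone regions 1 was called narrower and none wider, with a median difference of −0.41. Of 91 numbered zinc finger regions 1 was called wider, that of Zfp503, with a median of −0.07. No member of the other 24 lists with a member region was called, and the medians of the lists with at least 10 regions lay between −0.41 and −0.03, against −0.03 over all members. Among smaller lists, the median was 0.63 over 4 Notch regions, 0.34 over 8 collagen regions and −0.34 over 5 FGF and receptor tyrosine kinase regions.

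The number of called members depended strongly on single libraries. Wider regions numbered 11 without the e11.5 mandibular process, 9 without the medial nasal plate, 7 without the e15.5 library labelled mandibular process and 2 without that labelled maxillary process. Narrower regions numbered 4, 8, 2 and 7 without the e11.5 mandibular process, maxillary process, medial nasal plate and lateral nasal plate, and 4, 1 and 6 without the e15.5 libraries labelled mandibular process, maxillary process and nose. Without scaling the median difference over members was 0.21, and 23 regions were wider and 1 narrower, with Nr2f1 the narrower one. Unscaled differences of the other named narrower regions were negative too, for example −0.93 for Hmgb3 (adjusted p = 0.0885) and −0.95 for Hist1h4j (adjusted p = 0.134). List size also differs between libraries of each stage, and its part in these differences was not tested.

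The comparison of nasal with jaw tissue used 7 libraries and left out e15.5, with stage as a covariate. Nasal tissue was the nose of e13.5 and both plates of e11.5, and jaw tissue the mandibular and maxillary processes of both stages. In nasal tissue 3 members were wider and 0 narrower by limma at an adjusted p under 0.05, and 0.106% of all regions were called wider. At an unadjusted p under 0.05 there were 247 of the 2586 members and 24 of the 245 distal regions, which are like shares. No member was called narrower under any alternative. The 3 wider ones were Pim1, a serine/threonine kinase, Sash1, a scaffold protein, and Nktr, a cyclophilin-related protein. In each of the 3 the nasal and jaw libraries did not overlap.

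Sash1 covered 5657, 5548 and 6815 bp in the nasal libraries (e11.5 medial and lateral plate, then e13.5), against 1746, 1628, 1825 and 2507 bp in the jaw libraries (mandibular and maxillary of e11.5, then of e13.5). The difference was 1.38 (SE 0.17, adjusted p = 0.0329). Pim1 covered 4937, 4154 and 5462 bp in the nasal libraries, against 1368, 1642, 1264 and 1563 bp in the jaw libraries (difference 1.43, SE 0.19, adjusted p = 0.0329). Nktr covered 2284, 2191 and 2782 bp in the nasal libraries, against 863, 675, 711 and 877 bp in the jaw libraries (difference 1.29, SE 0.18, adjusted p = 0.0329).

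At e15.5, which did not enter that test, Pim1 covered 5123, 4502 and 1156 bp in the libraries labelled mandibular process, maxillary process and nose. The library labelled nose was thus at the jaw level of the earlier stages and the library labelled mandibular process, whose peaks are named for the nose, was at the nasal level, as was the library labelled maxillary process. Sash1 covered 6366, 7546 and 3790 bp and Nktr 2681, 2159 and 2465 bp in the same order of libraries, and neither showed the same split.

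The 3 nasal calls were not stable. No region was called when the e11.5 mandibular process, the e11.5 medial nasal plate, the e11.5 lateral nasal plate or the e13.5 nose was left out, 1 was called without the e13.5 mandibular process, and none was called on the widest single peak of a region. Without scaling 20 were called and the median difference over members was 0.22. The 3 nasal libraries were also the 3 with the most peaks among the 7, and the part of list size in these differences was not tested.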

How the data were processed

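Chromatin of dissected mouse embryonic faces was immunoprecipitated for H3K27ac, followed by Illumina TruSeq library preparation. Per the submitters' processing notes, the tools were MACS2 2.2.4, SAMtools 0.1.19 and BWA 0.7.7 on mm10, and the study's methods, written for human data, give broad calling at a q-value under 0.05. Settings for the mouse libraries were not given in the sources used here. The deposited files are broad peak lists, 1 per library, and for each peak the authors give its score, its fold enrichment over background, and the −log10 q-value and p-value of the caller, each relative to that library alone. No list held a −log10 q under 1.3. The deposited q-values ranked and filtered peaks within a list, and the fold enrichments and scores were not compared between lists. Read depth is unknown, so a missing peak may still hold signal, and precision is limited by the number of libraries.

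Peaks on chromosomes 1 to 19 and X (144824 of 144896) were merged, and the merged regions were checked against bedtools 2.31.1. Every last peak, in 200 of 200 pairs of library and chromosome, fell inside the chromosome's GRCm38 length. Groups follow the labels of stage and tissue. Summed peak width per region was log2-transformed, quantile-normalised over 2831 regions with a peak in all 10 libraries, and tested with limma 3.58.1 in R 4.3.3, with Benjamini-Hochberg adjustment over all 2831 and a threshold of 0.05. The stage fit used all 10 libraries and the nasal fit 7. The fits were tested on simulated data. Distal regions are those over 1 kb from every GENCODE vM21 start.

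Promoter composition used 1 start per protein-coding gene (the start near a region with the most libraries, then the most upstream) and the GRCm38.p6 genome, for 21748 of 21755 genes. Printed promoters and microRNAs came from RefSeq tables, in which 334 genes were matched through an older symbol. Scripts ran in Python 3.11.15 with pandas 2.3.3, numpy 2.4.6, matplotlib 3.10.9 and scipy 1.17.1.

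Named regions were the 10 widest and 5 narrowest members by median width, of called members without overlap of normalised widths the 10 largest and 10 smallest stage differences (5 and 5 for nasal minus jaw), up to 3 genes of each list by width, the 5 members with the most coding genes, the 5 with the smallest lowest −log10 q, 5 promoter regions in 9 libraries with the widest peaks, and the 5 members each with the smallest and largest SD. Some regions that this rule takes in are not reported here. The members and the lists were chosen with earlier results of these data known. Alternatives were a stricter q, equal peak numbers, windows of 0.5 and 2.5 kb, coding starts, coverage of 50% of a region, other scaling, the widest single peak, promoters alone, limma-trend, each library left out and, added after seeing the data, 1 start near a peak of every library and labelled tissue as a block in the stage fit.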

Additional observations from a re-analysis of the deposited data

Results flagged for a closer look

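Among 67 values tested in the 4 libraries of e11.5, 1 had a library far from the others, and chance gives about 1 in 20. The noncoding region of Gm26887 and Gm37352 on chromosome 8 covered 2545 bp in the e11.5 maxillary process, against 6597 to 6883 bp in the other 3 e11.5 libraries. Its cause was not tested. The e11.5 maxillary process also had the fewest peaks of any library, 6571.

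Outside the chromosomes used, the lists held 28 peaks on chromosome Y and 44 on unplaced sequence, which entered no comparison. The nasal minus jaw differences of Pim1, Sash1 and Nktr were also compared between e13.5 and e11.5. On the log2 scale the difference at e13.5 minus that at e11.5 was 0.48 for Pim1, −0.008 for Sash1 and 0.60 for Nktr. There was a single nasal library at e13.5, and the 3 regions were chosen on these same libraries. The comparison therefore cannot decide if the stages differed.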

How the results depend on the processing

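The count of members was within 1.5 times 2586 under windows of 0.5 kb (2582) and 2.5 kb (2604), coding starts only (2456), equal peak numbers (2182), 1 start near a peak of every library (2537) and each library left out (2584 to 3046). It was 1526 with peaks at −log10 q of at least 2 and 951 with 50% of the region covered in every library. Wider regions at e15.5 ranged from 2 to 27 and narrower ones from 1 to 15 with each library left out, and numbered 15 and 7 at the stricter q. Narrower regions numbered 1 without scaling. Wider regions in nasal tissue ranged from 0 to 4 with each library left out, and numbered 5 under median centring, 20 without scaling, 0 on the widest single peak and 1 with equal peak numbers. With labelled tissue (mandibular, maxillary or nasal) as a block, chosen after seeing the data, 26 members were wider and 16 narrower at e15.5. That block uses the e15.5 labels, which differ from the peak names, so a swap of tissues there could change its counts. Of 23 regions named by the rule from these tests, all but Smarca2, 4930578M01Rik and Nr2f1 lost the call under at least 1 alternative, and none changed direction. Smarca2, 4930578M01Rik and Nr2f1 were not in the fit at the stricter q, and Smarca2 and Nr2f1 were not in that with equal peak numbers. Their calls were thus not tested there. With equal peak numbers, members fell to 5 collagen genes, 1 osteoblast marker and 0 chondrocyte markers, and with a 2.5 kb window 1 macrophage marker was a member. Read depth is unknown, so small differences in width were not detectable from list size alone.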
